A study of Mus musculus with 12 samples.

Results

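The 9 genes *Ezh2*, *Ezh1*, *Eed*, *Suz12*, *Jarid2*, *Ring1*, *Rnf2*, *Bmi1* and *Cbx7*, which code for subunits of the Polycomb repressive complexes, were taken from the 24561 genes of a count table by their symbols, and all 9 were found and passed the filter on low counts. RNA was sequenced from sorted CXCR5hi PD-1hi follicular helper T (Tfh) cells, the CD4+ T cells that help B cells in germinal centers. The cells carried the OT-II receptor, which recognizes ovalbumin, and a *Cd4-cre* transgene, which is expressed in T cells. The HET group carried in addition 1 floxed *Bcl6* allele (CD4-Cre × Bcl6fl/+) and the WT group did not (CD4-Cre). Both kinds of cells, on a C57BL/6 background, had been transferred into CD45.1 *Sap*-/- recipients, whose own T cells lack the adaptor SAP. All recipients were immunized with NP-OVA and LPS in alum, and the Tfh cells were sorted from draining lymph nodes at day 3. There were 3 recipient mice in each group and 12 libraries in all, since each mouse gave 2 technical repeats of about 200 cells. The age of the mice and the number of donors of the transferred cells are not given in the sources used here, so the p-values measure the spread between recipients, and a donor and a genotype cannot be told apart if recipients of a group shared a donor.

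Polycomb proteins keep genes silent through 2 marks on histones. Polycomb repressive complex 2 (PRC2) methylates lysine 27 of histone H3 through EZH2 or EZH1. EED and SUZ12 hold the enzyme together, and accessory subunits such as JARID2 guide it to chromatin. Polycomb repressive complex 1 (PRC1) places ubiquitin on histone H2A through RING1 or RNF2 (RING1B) paired with a PCGF protein such as BMI1, and CBX proteins bind the methyl mark left by PRC2. In T cells, EZH2 is the form abundant in dividing cells and EZH1 also serves resting cells. Loss of PRC2 is known to derepress cytokine and lineage genes, and EZH2 is needed for Tfh cell differentiation.

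The promoters of 4 members are shown because these are the 3 genes whose transcripts passed the test between the genotypes (*Suz12*, *Ezh1*, *Cbx7*) and the enzyme gene *Ezh2*. All 9 members matched a RefSeq entry of GRCm38.p6, with 10 promoters in all, since *Jarid2* has 2. Each promoter covers 250 bases before and 50 after the start, for *Ezh2* chr6:47594981-47595280 on the minus strand, for *Suz12* chr11:79992856-79993155 on the plus strand, for *Ezh1* chr11:101226414-101226713 on the minus strand and for *Cbx7* chr15:79932597-79932896 on the minus strand. They are written 5′ to 3′ in the direction of transcription. Capitals mark the words of 3 motifs searched on both strands, which are E2F (TTTCCCGC, TTTGGCGC, TTTCGCGC or TTTGCCGC), NF-Y (CCAAT, or ATTGG on the other strand) and BCL6 (TTCCTNGAA). None of the marked words overlapped.
Ezh2: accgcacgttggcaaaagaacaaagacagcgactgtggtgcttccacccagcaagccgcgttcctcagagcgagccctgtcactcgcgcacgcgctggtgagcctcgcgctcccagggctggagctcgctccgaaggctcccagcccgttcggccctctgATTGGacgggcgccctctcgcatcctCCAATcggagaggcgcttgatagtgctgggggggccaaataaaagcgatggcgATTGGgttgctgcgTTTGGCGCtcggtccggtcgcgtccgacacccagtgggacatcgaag
Suz12: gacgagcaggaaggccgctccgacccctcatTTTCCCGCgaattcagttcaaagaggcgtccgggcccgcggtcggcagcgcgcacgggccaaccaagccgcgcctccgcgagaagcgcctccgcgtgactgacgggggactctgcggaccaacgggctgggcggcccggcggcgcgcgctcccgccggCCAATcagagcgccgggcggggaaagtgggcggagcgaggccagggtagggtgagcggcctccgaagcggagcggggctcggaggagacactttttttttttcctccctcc
Ezh1: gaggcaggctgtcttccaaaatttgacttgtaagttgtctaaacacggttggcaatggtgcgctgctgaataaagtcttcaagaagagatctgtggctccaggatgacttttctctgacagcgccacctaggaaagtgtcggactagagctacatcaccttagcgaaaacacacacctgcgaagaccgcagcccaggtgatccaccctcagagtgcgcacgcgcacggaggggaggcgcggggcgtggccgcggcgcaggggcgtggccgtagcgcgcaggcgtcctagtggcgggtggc
Cbx7: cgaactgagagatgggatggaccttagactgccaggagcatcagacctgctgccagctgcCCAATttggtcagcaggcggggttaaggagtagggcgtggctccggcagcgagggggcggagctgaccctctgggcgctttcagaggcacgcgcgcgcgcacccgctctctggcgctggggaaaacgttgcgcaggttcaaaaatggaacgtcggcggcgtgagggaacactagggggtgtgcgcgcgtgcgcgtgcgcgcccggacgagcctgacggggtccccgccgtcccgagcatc

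E2F factors drive genes of DNA replication, and an E2F word was present in 2.27% of the 32851 RefSeq promoters of the same length. Among the members it was found in *Ezh2*, as TTTGGCGC beginning at position 4 after the start, and in *Suz12*, as TTTCCCGC beginning at position -219. The NF-Y word, the binding word of a general promoter factor, was present in 37.4% of all promoters. It occurred 3 times in *Ezh2*, at -90, -64 and -11, and 1 time each in *Eed*, *Suz12*, *Cbx7* and both promoters of *Jarid2*. The BCL6 word was present in 1.59% of all promoters and in none of the 10 promoters of the members. The member promoters ranged in GC content from 54.7% in *Eed* to 74.0% in *Ring1* and held between 17 (*Eed*) and 41 (*Suz12*) CpG dinucleotides. A match is a string of letters and was not tested for binding. The RefSeq starts of *Ezh2*, *Eed*, *Jarid2* and *Cbx7* lie inside the genes as GENCODE annotates them.

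The libraries held 3343375 to 8315722 counts in the HET group and 5240715 to 7266106 in the WT group. Values are given below as normalized CPM, counts relative to the library total (CPM) scaled by edgeR's TMM factors, for each recipient mouse after the repeats were summed. *Bcl6*, the targeted gene, was at 146 to 150.0 CPM in the mice labelled HET and at 54.8 to 75.6 CPM in the mice labelled WT, a log2 fold change of 1.25 (adjusted p = 6.3e-07, edgeR's quasi-likelihood test). Its transcript was thus higher with the HET label. This runs opposite to the genotype, since the paper describes the HET cells as missing 1 copy of *Bcl6*. The reason was not tested, and all directions below rest on the labels. All 9 Tfh marker genes passed the filter in these sorted cells, and their summed level was 3055 to 3307 CPM in HET and 3468 to 3655 CPM in WT mice, with *Icos* called higher and *Cxcr5*, *Pdcd1*, *Cd4* and *Tcf7* called lower in HET. In the test over all 12719 genes that passed the filter, 18.0% were called at an adjusted p under 0.05, 9.17% higher and 8.82% lower in HET, and the mice of the 2 groups did not overlap in 34.4% of the genes. The median log2 fold change of all genes tested was 0.01.

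Transcripts of other cell types were present at low levels. The summed level of 5 myeloid markers was 12.7 to 26.2 CPM in HET mice and 5.31 to 8.36 CPM in WT mice. Of these, 2 were tested and 1 was called higher, *Lyz2* (log2 fold change 2.64, adjusted p = 0.00531 in edgeR's quasi-likelihood test), while *Cd14* was at 0 in all 6 mice. *Lyz2* was at 16.5, 3.67 and 3.19 CPM in HET mice and at 0.0916, 2.04 and 1.58 in WT mice, so that HET mouse 1 stood far above the rest and WT mouse 1 below. *Csf1r*, the other gene tested, was at 8.30, 9.62 and 9.36 CPM in HET mice and at 4.95, 5.87 and 5.18 in WT mice, without overlap (log2 fold change 0.77, adjusted p = 0.0676 in edgeR's test). The summed level of 6 B cell markers was 2.77 to 29.1 CPM in HET and 1.87 to 19.1 in WT mice, with 2 tested and neither called (adjusted p = 0.630 for *Cd79a* and 0.294 for *Cd79b* in edgeR's test), and *Ebf1* at 0 in all mice but 1. The myeloid sum was higher in every HET mouse than in every WT mouse and the B cell sum overlapped, and their part in the differences of the Polycomb genes was not tested.

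Among the 9 Polycomb members, *Suz12* rose in HET cells, *Ezh1* and *Cbx7* fell, and the other 6 did not pass the test. The called share, 3 of 9, stands beside the 18.0% of all genes, and 1 member was higher (all genes 9.17%) and 2 were lower (all genes 8.82%). The median log2 fold change of the members was -0.27, and *Suz12* alone had a value above 0. The mice of the 2 groups did not overlap for 4 members, *Ezh2*, *Ezh1*, *Eed* and *Suz12*, 44.4% of the members against 34.4% of all genes. For *Ezh2* the separation was very narrow, with 215.5 CPM in the highest HET mouse and 215.6 in the lowest WT mouse. Because bulk RNA was measured, fewer cells that express a gene and less RNA of that gene in each cell cannot be told apart.

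**Figure D1:**
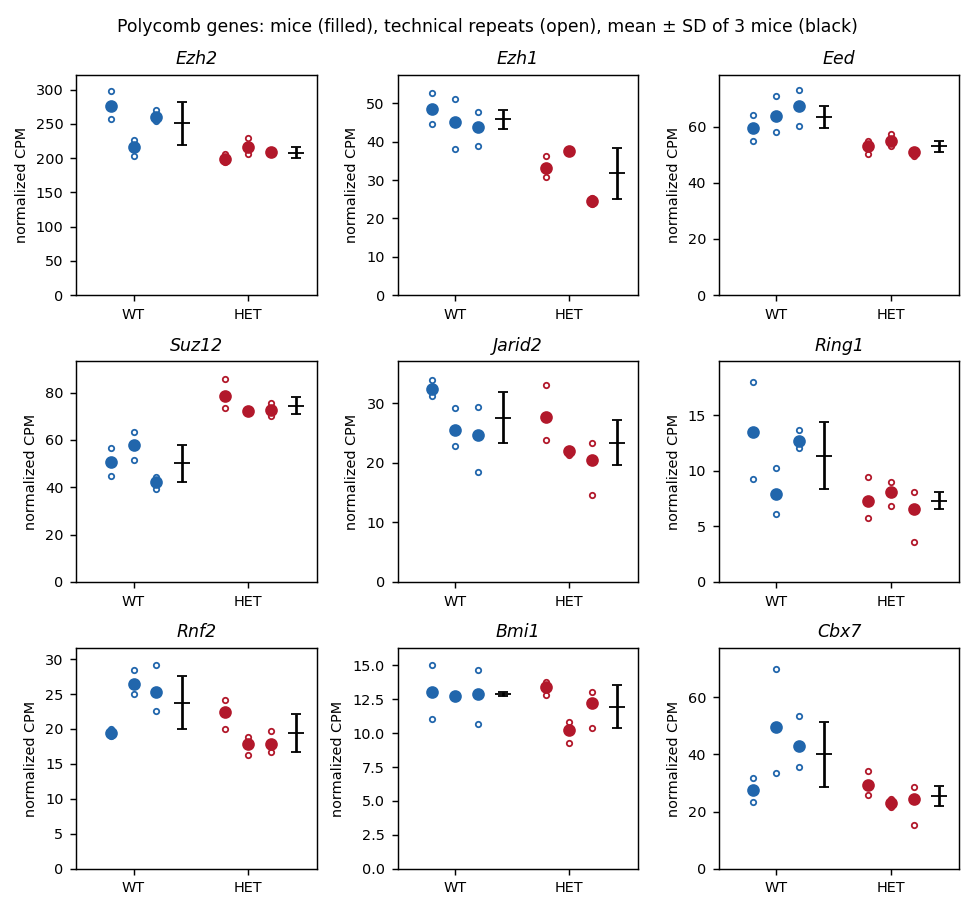
Normalized CPM (y axis, linear from 0) of the 9 Polycomb members in WT (blue) and HET (red) mice, with each mouse as a filled point, its 2 technical repeats as open points, and the mean ± SD of 3 mice in black. The 3 HET mice lie above all WT mice for *Suz12* and below all WT mice for *Ezh1*, *Eed* and, by a small margin, *Ezh2*.

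SUZ12 is the subunit on which PRC2 is assembled. Its gene, *Suz12* (chromosome 11 from 79993106 to 80034123 of GRCm38, plus strand), had 78.5, 72.1 and 72.6 normalized CPM in the 3 HET mice and 50.5, 57.9 and 42.2 in the 3 WT mice. Every HET mouse was above every WT mouse, and the separation also held for single libraries, with 70.2 to 85.6 CPM in the 6 HET libraries and 39.4 to 63.4 in the 6 WT libraries. The means were 74.4 ± 3.58 (SD, n = 3) and 50.2 ± 7.84 (SD, n = 3). For *Suz12* the log2 fold change came to 0.57 (standard error 0.13, 95% interval 0.30 to 0.84, adjusted p = 0.00376 in edgeR's quasi-likelihood test), or 48.4% more transcript in HET. It passed the test in all 6 fits that each left out 1 mouse, with log2 fold changes from 0.45 to 0.68. With technical repeat 1 of each mouse alone the log2 fold change was 0.79, and with repeat 2 alone it was 0.41 (adjusted p = 0.113, edgeR's test). In the 3 fits on the deposited TPM values it was 0.43 to 0.47 and did not pass (adjusted p from 0.0823 to 0.127, limma).

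EZH1 is the second H3K27 methyltransferase of PRC2. *Ezh1* (chromosome 11 from 101191115 to 101226463, minus strand) was at 33.0, 37.7 and 24.5 normalized CPM in the HET mice and at 48.6, 45.2 and 43.9 in the WT mice. No HET library reached the lowest WT library, with 23.7 to 37.7 CPM against 38.1 to 52.8. The WT mice lay close together, and the HET mice were spread more widely, the lowest being mouse 3. The means of 31.7 ± 6.71 (SD, n = 3) and 45.9 ± 2.47 (SD, n = 3) gave a log2 fold change of -0.53 (standard error 0.16, 95% interval -0.86 to -0.20, adjusted p = 0.0230 in edgeR's quasi-likelihood test). For *Ezh1* this is a change of -30.7%. The value was -0.38 without HET mouse 3 (adjusted p = 0.105), -0.49 without WT mouse 1 (adjusted p = 0.0788) and -0.55 without WT mouse 2 (adjusted p = 0.0522, edgeR's test for all 3 values). It was -0.28 with repeat 1 alone (adjusted p = 0.488) and -0.72 with repeat 2 alone (adjusted p = 0.0165, edgeR's test for both), and -0.42 when trends with GC content and length were removed (adjusted p = 0.0645, edgeR's test). The 3 TPM fits did not call *Ezh1* (adjusted p from 0.0777 to 0.158, limma).

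EZH2 is the main H3K27 methyltransferase of dividing cells and its gene had the highest level per kb of the members. *Ezh2* (chromosome 6 from 47530139 to 47595341, minus strand) was at 199, 216 and 208 normalized CPM in HET mice and at 277, 216 and 260 in WT mice. The highest HET mouse, with 215.5 CPM, and the lowest WT mouse, with 215.6, were almost level, while the other WT mice stood well above. The means were 208 ± 8.18 (SD, n = 3) and 251 ± 31.6 (SD, n = 3), with a log2 fold change of -0.27 (standard error 0.10, 95% interval -0.48 to -0.06), which did not pass after adjustment (adjusted p = 0.0687 in edgeR's quasi-likelihood test). Without WT mouse 2, the lowest of its group, *Ezh2* had a log2 fold change of -0.38 and passed (adjusted p = 0.0242 in edgeR's test). Of the 6 fits that left out 1 mouse, *Ezh2* was called in this 1 alone. Without WT mouse 1 its value was -0.21 (adjusted p = 0.264, edgeR's test). The call on *Ezh2* was also made by DESeq2 (-0.28, adjusted p = 0.0393) and by edgeR with a looser filter on low counts (adjusted p = 0.0460). Limma's voom fit, in which the mouse was a random effect, called it too (-0.27, adjusted p = 0.0284). The within-mouse correlation in that fit was 0.0057, so the repeats were treated almost as independent. EdgeR with 12 libraries as independent samples, which counts the 2 repeats of a mouse as separate samples, also made the call (adjusted p = 0.0358). In all, 5 of the 15 other settings called *Ezh2*. The other 10 did not call *Ezh2*, among them the removal of GC and length trends (-0.20, adjusted p = 0.213), upper-quartile scaling (adjusted p = 0.115), repeat 1 or repeat 2 alone (adjusted p = 0.193 and 0.240, edgeR's test for these) and the 3 TPM fits (adjusted p from 0.132 to 0.240, limma). The technical repeats of *Ezh2* were the closest of all members, with an SD between repeats of 0.10 on the log2 scale.

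EED binds the methyl mark and stimulates the enzyme. *Eed* (chromosome 7 from 89954654 to 89980983, minus strand) was at 53.1, 54.9 and 50.8 normalized CPM in HET mice and at 59.3, 63.6 and 67.4 in WT mice. The mice did not overlap (p = 0.1 in an exact two-sided permutation test, as low as 3 mice against 3 can go), although single libraries did. The log2 difference of *Eed* was -0.26 (standard error 0.12, 95% interval -0.51 to -0.01, adjusted p = 0.148 in edgeR's quasi-likelihood test), and no alternative called it. JARID2 is an accessory subunit that recruits PRC2. *Jarid2* (chromosome 13 from 44729474 to 44921643, plus strand) was at 27.7, 22.0 and 20.6 CPM in HET mice and at 32.5, 25.6 and 24.7 in WT mice. The groups overlapped through HET mouse 1, and the log2 fold change of *Jarid2* was -0.23 (standard error 0.18, 95% interval -0.61 to 0.14, adjusted p = 0.417 in edgeR's test). It was -0.11 without WT mouse 1 (adjusted p = 0.794) and -0.37 without HET mouse 1 (adjusted p = 0.240, edgeR's test for both).

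CBX7 belongs to the chromobox proteins that read H3K27 methylation for PRC1. *Cbx7* (chromosome 15 from 79915807 to 79971119, minus strand) was at 29.3, 22.8 and 24.3 normalized CPM in the HET mice and at 27.5, 49.6 and 42.9 in the WT mice. WT mice 2 and 3 were high and WT mouse 1 lay among the HET mice, so the groups overlapped (two-sided exact permutation test, p = 0.2). The means were 25.4 ± 3.38 (SD, n = 3) and 40.0 ± 11.4 (SD, n = 3). The change of *Cbx7* was -0.65 on the log2 scale (standard error 0.19, 95% interval -1.04 to -0.26, adjusted p = 0.0185 in edgeR's quasi-likelihood test), a change of -36.3%. The repeats of a mouse differed by up to 1.05 on the log2 scale, and WT mouse 2 had 69.9 CPM in repeat 1 and 33.5 in repeat 2. The fold change of *Cbx7* on the log2 scale was -1.11 with repeat 1 alone (adjusted p = 0.00471) and -0.22 with repeat 2 alone (adjusted p = 0.596, edgeR's test for both). The call on *Cbx7* was lost in 4 of the 6 fits that left out 1 mouse, with adjusted p values in edgeR's test of 0.0790 without HET mouse 2, 0.0607 without HET mouse 3, 0.134 without WT mouse 2 and 0.0760 without WT mouse 3. It was not made in the 3 TPM fits either (adjusted p from 0.0979 to 0.227, limma).

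RING1 and RNF2 are the alternative ubiquitin ligases of PRC1. *Ring1* (chromosome 17 from 34020792 to 34024680, minus strand) was at 7.28, 8.13 and 6.58 normalized CPM in HET mice and at 13.6, 7.91 and 12.7 in WT mice. WT mouse 2 fell among the HET mice and the other WT mice were above them. The log2 difference of *Ring1* was -0.63 (standard error 0.27, 95% interval -1.20 to -0.07, adjusted p = 0.112 in edgeR's quasi-likelihood test), nearly as large as that of *Cbx7* but on fewer reads. It was -0.404 when trends with GC content and length were removed (adjusted p = 0.342). With repeat 1 alone it was -0.89 and with repeat 2 alone -0.405 (adjusted p = 0.159 and 0.579, edgeR's test for all 3 values). The lowest library of *Ring1*, repeat 1 of HET mouse 3, held 12 counts, and the repeats of a mouse differed by up to 1.07 on the log2 scale, the widest of the members. *Rnf2* (chromosome 1 from 151458004 to 151500955, minus strand) was at 22.5, 17.8 and 17.9 CPM in HET mice and at 19.4, 26.5 and 25.3 in WT mice. HET mouse 1 and WT mouse 1 crossed over, and the log2 fold change of *Rnf2* was -0.29 (standard error 0.19, 95% interval -0.68 to 0.11, adjusted p = 0.328 in edgeR's test).

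BMI1 (PCGF4) stimulates the ubiquitin ligase of canonical PRC1. *Bmi1* (chromosome 2 from 18677018 to 18686629, plus strand) was at 13.4, 10.2 and 12.2 normalized CPM in HET mice and at 13.0, 12.7 and 12.9 in WT mice. The WT mice lay inside the range of the HET mice. The log2 fold change of *Bmi1*, -0.11 (standard error 0.22, adjusted p = 0.794 in edgeR's quasi-likelihood test), was the smallest in size of the 9, and its 95% interval of -0.57 to 0.36 spans changes as large as the decrease of *Ezh1* and a smaller increase.

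The spread between repeats of a mouse differed widely among the members. The SD between repeats, on the log2 scale, was 0.10 for *Ezh2*, 0.14 for *Eed*, 0.16 for *Suz12*, 0.17 for *Rnf2*, 0.18 for *Ezh1*, 0.21 for *Bmi1*, 0.32 for *Jarid2*, 0.47 for *Cbx7* and 0.51 for *Ring1*. For *Cbx7* the SD between mice on the same scale was 0.44 in WT and 0.18 in HET, for *Ring1* 0.40 and 0.14, and for *Jarid2* 0.21 and 0.22, in each case below the SD between repeats. In 8 of the 9 members, all but *Suz12*, the library with the fewest counts of the gene was repeat 1 of HET mouse 3, which was also the smallest library.

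**Figure D2:**
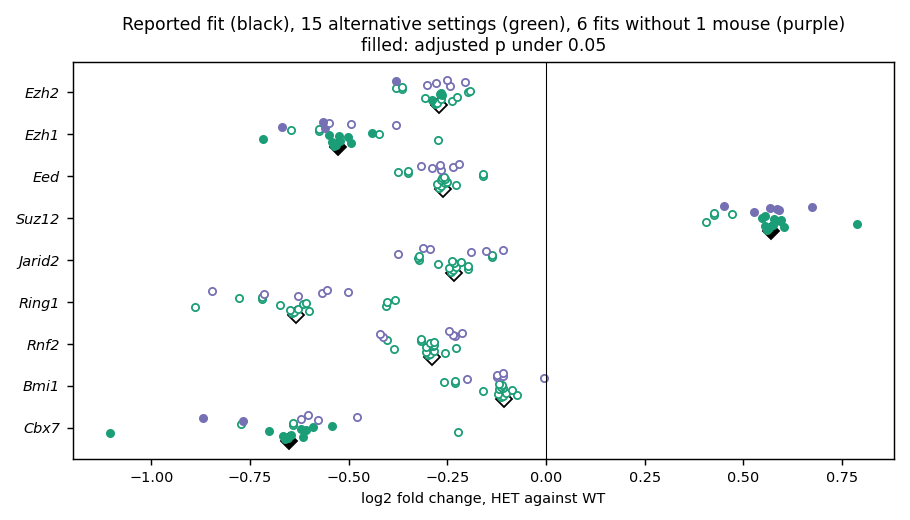
Log2 fold change of each member, HET against WT (x axis), in the reported fit (black diamonds), under 15 other settings (green) and in 6 fits that each left out 1 mouse (purple), filled where the adjusted p was under 0.05. *Suz12* stays on the right of 0 and the other 8 members on the left of 0 in all of them, while filled points are found for *Ezh2*, *Ezh1*, *Suz12* and *Cbx7* alone.

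Levels of different genes were compared as CPM per kb of the longest annotated transcript. In WT mice the order of the levels per kb was *Ezh2* (90.0 ± 11.4, SD, n = 3), *Eed* (30.7 ± 1.94), *Suz12* (11.5 ± 1.79), *Ezh1* (10.9 ± 0.587), *Rnf2* (7.41 ± 1.18), *Cbx7* (6.61 ± 1.87), *Ring1* (4.46 ± 1.19), *Bmi1* (3.58 ± 0.0418) and *Jarid2* (3.30 ± 0.511). *Ezh2* and *Eed* stood apart from each other and from the rest in every WT mouse. *Suz12* and *Ezh1* overlapped between WT mice, and so did each neighbouring pair from *Rnf2* down to *Jarid2*. In HET mice the level per kb of *Suz12* was 17.0 ± 0.818 (SD, n = 3) and that of *Ezh1* was 7.54 ± 1.59, so the pair no longer overlapped, and *Ezh1* overlapped *Rnf2* (6.06 ± 0.835) instead. *Cbx7* (4.20 ± 0.558) lay above *Bmi1* (3.33 ± 0.445) in every HET mouse by a narrow margin, and *Bmi1*, *Ring1* (2.87 ± 0.305) and *Jarid2* (2.80 ± 0.449) overlapped. When all annotated exons of a gene were merged to give its length, the mean WT levels per kb were 37.6 for *Ezh2*, 16.6 for *Eed* and 10.2 for *Suz12*, in the same order, with *Cbx7* and *Ezh1* both at 6.17.

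The balance among PRC2 transcripts was described by ratios of these levels per kb in each mouse, 5 ratios in all, without a test. *Suz12* to *Eed* was 0.699, 0.621 and 0.676 in HET mice and 0.403, 0.430 and 0.296 in WT mice. *Suz12* to *Ezh2* was 0.251, 0.213 and 0.222 in HET mice and 0.116, 0.171 and 0.103 in WT mice. Every HET mouse was above every WT mouse in both ratios, which share *Suz12*. *Eed* to *Ezh2* had nearly equal means in the 2 groups, 0.344 ± 0.0156 (SD, n = 3) in HET and 0.345 ± 0.0546 (SD, n = 3) in WT. The 2 enzymes, *Ezh2* to *Ezh1*, were at 10.2 ± 2.32 in HET and 8.25 ± 0.922 in WT mice, with overlap. The 2 ligases of PRC1, *Rnf2* to *Ring1*, were at 2.13 ± 0.359 and 1.80 ± 0.785, also with overlap. Because each ratio divides by a length fixed for the gene, the comparison between groups does not depend on the transcript chosen.

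**Figure D3:**
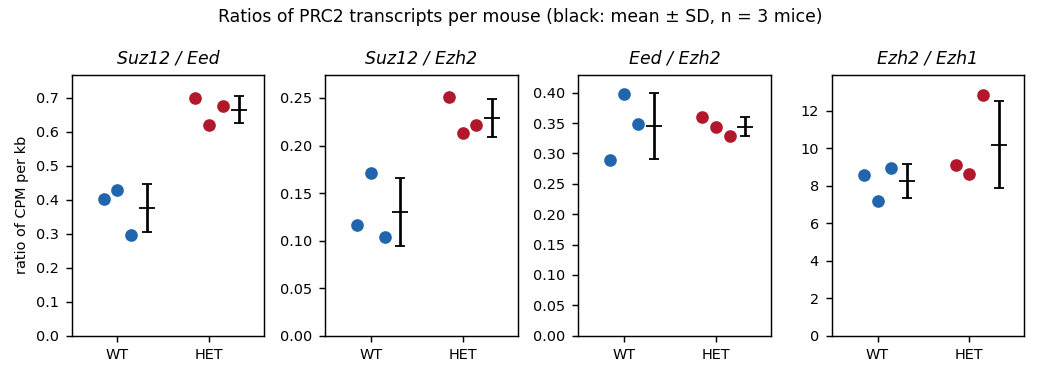
Ratios of CPM per kb (y axis, linear from 0) between PRC2 transcripts in each WT (blue) and HET (red) mouse, with the mean ± SD of 3 mice in black. *Suz12* relative to *Eed* or to *Ezh2* is higher in all HET mice, and *Eed* relative to *Ezh2* is centred on similar values, 0.344 in HET and 0.345 in WT.

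A further 34 genes of the Polycomb system were listed, and 33 of them were tested (*Scml2* did not pass the filter). Of these, 2 rose in HET and 2 fell, 12.1% of the list against 18.0% of all genes, the median log2 fold change was -0.03, and the mice of the groups did not overlap for 12 genes, 36.4% of the list against 34.4% of all genes. Both genes that fell code for the histone chaperones that complete the PRC2 core, which also serve other chromatin complexes. *Rbbp4* was at 201, 233 and 205 normalized CPM in HET mice and at 331, 325 and 373 in WT mice (log2 fold change -0.69, standard error 0.10, adjusted p = 4.76e-05 in edgeR's quasi-likelihood test). *Rbbp7* was at 249, 243 and 284 CPM in HET mice and at 350.1, 364 and 381 in WT mice (log2 fold change -0.50, standard error 0.09, adjusted p = 0.000728 in edgeR's test). All WT mice were above all HET mice for both genes, and both calls were kept in each fit that left out 1 mouse. *Rbbp7* was not called with repeat 1 alone (-0.36, adjusted p = 0.0929 in edgeR's test), and neither gene was called on TPM values without a filter (adjusted p = 0.0523 for *Rbbp4* and 0.0559 for *Rbbp7*, limma).

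AEBP2 is a PRC2 accessory subunit that binds SUZ12. *Aebp2* was at 70.5, 52.4 and 54.5 normalized CPM in HET mice and at 31.0, 43.6 and 28.3 in WT mice, with every HET mouse above every WT mouse. The log2 fold change, 0.79 (standard error 0.16, adjusted p = 0.00160 in edgeR's quasi-likelihood test), passed, and *Aebp2* was called in all 6 fits that left out 1 mouse but in none of the 3 TPM fits (adjusted p from 0.0649 to 0.138, limma). *Mga*, which codes for the DNA-binding subunit of a variant PRC1, was at 27.5, 27.8 and 27.3 CPM in HET mice and at 20.1, 19.6 and 19.3 in WT mice. Its log2 fold change of 0.49 (standard error 0.17) was at the threshold (adjusted p = 0.0488 in edgeR's test), and *Mga* was called in 0 of the 6 fits that left out 1 mouse and under 5 of the 15 other settings. With GC and length trends removed the value of *Mga* was 0.27 (adjusted p = 0.345, edgeR's test), and with repeat 1 alone it was 0.84 (adjusted p = 0.0567, edgeR's test).

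By class, the 4 calls fell on 2 of 2 PRC2 core genes outside the members, 1 of 5 PRC2 accessory genes and 1 of 8 variant PRC1 genes. The tested genes of the PCGF family, CBX genes other than the member *Cbx7*, of the PHC and SCM families, of the deubiquitinase complex PR-DUB and of the H3K27 demethylases did not pass edgeR's test. *Kdm6a*, an H3K27 demethylase, had a log2 fold change of -0.08 (adjusted p = 0.778 in edgeR's test) and *Kdm6b*, the other, of 0.25 (adjusted p = 0.462). *Bap1*, the deubiquitinase, had -0.36 (adjusted p = 0.0940), and its partner *Asxl1* had 0.33 (adjusted p = 0.0701), both in edgeR's test with mice that did not overlap. With the members, 42 Polycomb genes were tested, 3 of them higher and 4 lower in HET, a called share of 16.7% against 18.0% of all genes, and mice that did not overlap in 38.1% against 34.4%. Over the whole Polycomb system the shares were thus near those of all genes.

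**Figure D4:**
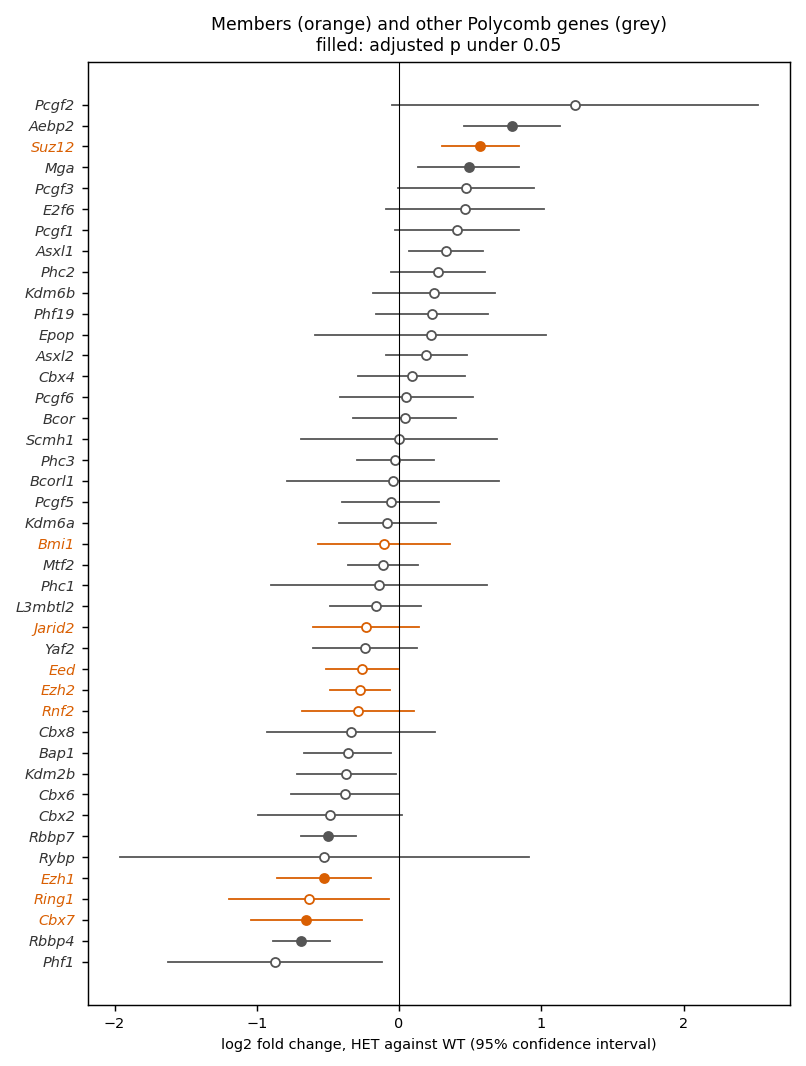
Log2 fold change, HET against WT, with 95% confidence interval (x axis) for the 9 members (orange) and the 33 other tested Polycomb genes (grey), filled where the adjusted p was under 0.05. *Aebp2*, *Suz12* and *Mga* are filled on the right and *Rbbp7*, *Ezh1*, *Cbx7* and *Rbbp4* on the left, and the widest intervals belong to genes at few counts.

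Genes that PRC2 is known to hold silent in T cells were mostly at or near 0 in these Tfh cells of both groups. Of the 10 such genes on the list that were in the table, 6 did not pass the filter, and none of these exceeded 1.97 CPM in any mouse (*Prdm1*, which codes for BLIMP-1). Of the 4 tested, 2 rose in HET, where 9.17% of all genes were called higher. *Id2*, which codes for an inhibitor of E proteins, was at 26.4, 16.6 and 23.3 normalized CPM in HET mice and at 16.2, 9.60 and 11.8 in WT mice, with HET mouse 2 just above WT mouse 1. *Id2* rose by 0.82 on the log2 scale (standard error 0.23, adjusted p = 0.0145 in edgeR's quasi-likelihood test). The call on *Id2* was lost without HET mouse 1 (adjusted p = 0.0878), WT mouse 2 (adjusted p = 0.0847) or WT mouse 3 (adjusted p = 0.0621, edgeR's test). *Id2* was also not called with repeat 1 alone (adjusted p = 0.0576) or repeat 2 alone (adjusted p = 0.174, edgeR's test for both), nor in the 3 TPM fits (adjusted p from 0.127 to 0.288, limma).

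*Il4*, which codes for a cytokine that Tfh cells give to B cells, was at 77.6, 59.5 and 59.8 normalized CPM in HET mice and at 42.5, 60.4 and 38.2 in WT mice, with WT mouse 2 among the HET mice. *Il4* rose by 0.48 on the log2 scale (standard error 0.16, adjusted p = 0.0353 in edgeR's quasi-likelihood test). The call on *Il4* was lost without HET mouse 1 (0.34, adjusted p = 0.203), WT mouse 1 (0.41, adjusted p = 0.140) or WT mouse 3 (0.35, adjusted p = 0.196), and when GC and length trends were removed it had 0.23 (adjusted p = 0.397, edgeR's test for all). Nor was *Il4* called with repeat 1 alone (adjusted p = 0.259, edgeR's test) or in the 3 TPM fits (adjusted p from 0.152 to 0.290, limma). *Gata3* had a log2 fold change of 0.03 and *Tbx21* of -0.29 (adjusted p = 0.885 and 0.641 in edgeR's test), the lineage factors of Th2 and Th1 cells. The list is general knowledge of such genes, and no histone mark was measured here.

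Since *Ezh2* is known as a gene of dividing cells, 16 proliferation genes were set beside it. Their summed level was 6833 to 6907 CPM in HET mice and 6546 to 6970 in WT mice, so the HET range lay inside that of WT. Single genes moved in both directions, 2 higher and 5 lower in HET, 43.8% of the list against 18.0% of all genes, with a median log2 fold change of -0.15. *Mki67*, the Ki-67 antigen, rose by a log2 fold change of 0.63 (adjusted p = 0.000194) and *Top2a*, a topoisomerase, by 0.54 (adjusted p = 0.000209). *Uhrf1*, which maintains DNA methylation, had -0.49 (adjusted p = 0.00133) and *Mcm5*, a subunit of the replicative helicase, had -0.48 (adjusted p = 0.00258), all in edgeR's quasi-likelihood test. The other 3 genes that fell were *Mcm4*, *Mcm6* and *Mcm7*, while *Mcm2* (-0.21, adjusted p = 0.196) and *Mcm3* (-0.08, adjusted p = 0.600), also on the list, did not pass edgeR's test. *Uhrf1* and *Mcm5* were not called with repeat 1 alone (adjusted p = 0.0784 and 0.279 in edgeR's test). On TPM values without a filter none of *Mki67*, *Top2a*, *Uhrf1* and *Mcm5* was called (adjusted p from 0.0604 to 0.145, limma), and *Mki67* and *Mcm5* were not called with log2(TPM + 0.1) (adjusted p = 0.0505 and 0.0590), nor *Mcm5* with log2(TPM + 1) (adjusted p = 0.0577).

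The genes whose levels ran most closely with *Ezh2* were found by Pearson's r of log2 CPM over the 12 libraries, among 9372 genes with a mean of at least 5 CPM, as a description. These were *Clpb* (r = 0.90), *Rnf125* (r = 0.87), *Stam2* (r = 0.87), *Bphl* (r = 0.87) and *Bub1b* (r = 0.86). Their own log2 fold changes, HET against WT, were -0.59 for *Clpb*, -0.35 for *Rnf125*, -0.89 for *Stam2*, -0.79 for *Bphl* and -0.16 for *Bub1b*, which codes for a mitotic checkpoint kinase. Of the 6 fits that left out 1 mouse, *Clpb* passed in 4, *Rnf125* in 2, *Stam2* in 6, *Bphl* in 3 and *Bub1b* in 0. Among the members *Ring1* was nearest to *Ezh2* (r = 0.68, rank 291), followed by *Ezh1* (r = 0.61, rank 618) and *Eed* (r = 0.33, rank 2559). *Suz12* lay at the opposite end, with r = -0.78 and rank 9299 of 9372. The libraries share mice, groups and scaling, so these values include the difference between the genotypes.

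For 5 members an annotated gene on the opposite strand shares exon sequence, 174 bp for *Ezh2*, 261 bp for *Eed*, 178 bp for *Suz12*, 158 bp for *Rnf2* and 100 bp for *Cbx7*, between 1.54% and 6.82% of the member's exons. The strand setting of the counting is not given in the sources used here, so reads of the partners could not be told apart.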

How the data were processed

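Polyadenylated RNA of about 200 sorted Tfh cells per library was prepared with an adapted SMART-Seq2 protocol and sequenced on an Illumina HiSeq instrument. Read quality was checked by the authors with FastQC. HISAT2 2.2.1 aligned the reads to GRCm38 (mm10), HTSeq-count assigned them to genes, and the authors deposited the raw counts of 24561 genes. The authors also deposited TPM values. The annotation release, the strand setting and the gene lengths behind the TPM are not given in the sources used here.

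The deposited counts of the 2 repeats were added up within each mouse. In R 4.3.3, edgeR 4.0.16 then tested 3 HET against 3 WT mice by its quasi-likelihood method, with filterByExpr as the filter and TMM factors as the scaling. P-values were adjusted by Benjamini-Hochberg over 12719 genes, and a gene was called under 0.05. Standard errors were derived from the fold change and F. Mouse totals were 10098419 to 14002507 counts. Reads carry no molecular identifiers, and counting error is therefore smaller than the true error. Correlations used log2(CPM + 0.5).

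Alternatives were DESeq2 1.42.0, limma 3.58.1 (voom, where mouse was a random effect, or log2 of TPM plus 1 or 0.1, fold changes then being on that scale), other scalings and filters, each repeat alone, 12 libraries as independent samples, the replicate number as a block, GC and length trends removed with mgcv 1.9.3 (values for 99.2% of the tested genes), and leaving out each mouse. Scripts were tested on simulated data. Positions and lengths came from GENCODE M21 on GRCm38, which held 23822 of the symbols as written and 240 under another symbol, and lacked 499. Promoters came from RefSeq on GRCm38.p6.

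The members, the gene lists and the alternatives were chosen with earlier results of these data known. Named were the 9 members, the called genes among the other Polycomb genes (up to 12), up to 4 called genes of the target and proliferation lists, *Bcl6*, and the 5 genes most like *Ezh2*. *Kdm6a*, *Kdm6b*, *Bap1*, *Asxl1*, *Gata3*, *Tbx21*, *Prdm1*, *Lyz2*, *Csf1r*, *Cd14*, *Cd79a*, *Cd79b*, *Ebf1*, *Mcm2*, *Mcm3*, *Mcm4*, *Mcm6*, *Mcm7* and the Tfh markers named were chosen after their values were seen. B cell libraries of the study were not analysed here.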

Additional observations from a re-analysis of the deposited data

Results flagged for a closer look

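Among 18 sets of 6 libraries (9 members in each group), 1 held a library far from the other 5, where chance gives about 1 in 20 sets. Repeat 1 of HET mouse 1 had 85.6 normalized *Suz12* CPM, and the median of the other 5 HET libraries was 72.7. The gap to the nearest library was 0.648 of the whole range of the group. Without HET mouse 1, the log2 fold change of *Suz12* was 0.53 (adjusted p = 0.0206 in edgeR's quasi-likelihood test).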

How the results depend on the processing

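No direction of a member changed under the 15 other settings or in the 6 fits that each left out 1 mouse, and the cause of a changed value was not tested unless stated. Against 1 member called higher, 2 called lower and 2288 genes in all, repeat 1 alone, with fewer reads, gave 1 lower and 1059 genes, and repeat 2 alone gave 0 higher, 1 lower and 1446 genes. Removal of GC and length trends gave 1 lower, and the same together with the replicate block gave 2 lower, *Ezh1* then being at -0.44 (adjusted p = 0.0484 in edgeR's test). Log2(TPM + 1), log2(TPM + 0.1) and log2(TPM + 1) with no filter each gave 0 higher and 0 lower among the members, with 1305, 1260 and 221 genes in all. The members called lower numbered 0 (without HET mouse 3) to 2, and all genes called 1424 (without WT mouse 3) to 1972, when 1 mouse was left out, which also leaves fewer samples, and 1 member was called higher in each of these fits. The split of higher and lower calls over all genes, 1166 and 1122, was 1193 and 747 once GC and length trends were removed, 1331 and 957 with upper-quartile scaling, and 390 and 915, 374 and 886, and 78 and 143 in the TPM fits in the order above. Log2(TPM + 0.1) also moved the median log2 fold change over all genes, from 0.01 to -0.11. In the replicate block, 1 member was higher and 3 were lower, *Ezh2* joining at -0.27 (adjusted p = 0.0480 in edgeR's test), with 2579 genes called. Whether the replicate numbers pair the mice was not settled. The correlations of deviations of same-numbered mice were 0.10, -0.03 and 0.04, and 3 mice a group are too few to exclude a pairing. With 3 mice a group, a fold change like that of *Bmi1* cannot be told from no change, and the 12 counts of *Ring1* in the smallest library limit its precision.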
